A study of Mus musculus with 48 samples.

Results

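Cdkn1a, which encodes the cell-cycle inhibitor p21, was described in mouse liver together with known targets of p53, the growth regulator Btg2 and the senescence locus Cdkn2a. The set named 10 genes, and 8 had a probe set (the probes read together as 1 value) that carried 1 gene symbol: Cdkn1a, Trp53inp1, Mdm2, Ccng1, Btg2, Phlda3, Sesn1 and Cdkn2a. Each of the 8 had 1 such probe set and passed the filter on low values, as did 16926 of 22180 genes in all. Gadd45a shared its probe set with E230016M11Rik and Gdf15 had no listed probe set, so neither was analysed here. The genes were chosen because Cdkn1a followed dietary protein and Btg2 differed between High and Medium energy diets, so both patterns are described with standard errors and without a test.

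The data came from 48 livers, 1 Affymetrix array each, of mice that ate their diet freely from 3 weeks of age until tissue was taken at 15 months. Diets are written protein/carbohydrate/fat, each a percent of the energy, and were made at a High, Medium or Low energy level. Males and females were both in the study, housed 3 to a cage; the labels used here gave neither the strain nor the sex of a mouse. The labels stated no genetic change and named no diet as a control. The 29 High energy mice ate 5/20/75 (2 mice), 5/48/48 (4), 5/75/20 (4), 14/29/57 (4), 14/57/29 (2), 23/38/38 (3), 23/65/12 (2), 33/20/47 (2), 33/47/20 (2), 42/29/29 (1) or 60/20/20 (3). The 14 Medium energy mice ate 14/29/57 (1), 14/57/29 (2), 23/38/38 (3), 33/20/47 (3), 33/47/20 (2) or 42/29/29 (3). The 5 Low energy mice ate 23/38/38 (1), 42/29/29 (1) or 60/20/20 (3). By protein share there were 10 mice on 5%, 9 on 14%, 9 on 23%, 9 on 33%, 5 on 42% and 6 on 60%, and every mouse on 5% protein had a High energy diet.

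As background, p21 binds cyclin-dependent kinases and holds cells before DNA synthesis, and in hepatocytes its gene responds to p53 and also to fasting, amino acid shortage and other stresses. p53 is a transcription factor that Mdm2 marks for destruction; Mdm2 is itself a p53 target, so the pair forms a feedback loop. Btg2 belongs to the BTG/TOB family, whose proteins slow proliferation and recruit the CCR4-NOT complex to shorten the tails of messenger RNAs. Liver markers were present on every array: albumin (Alb) had a log2 level of 12.63 to 13.06 and the hepatocyte factor Hnf4a 8.45 to 10.86. In bulk tissue, a change in the number of cells of a type and a change in RNA per cell cannot be told apart.

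Sequence upstream of the gene starts is shown for 3 of these genes, since p53 binding sites and the cyclic AMP response element (CRE) bear on how such genes are known to be controlled. The windows are the 250 bases before a start, read in the direction of the gene from RefSeq's table for GRCm38.p6, in which 7 of the 8 genes had a total of 10 windows. Capitals mark a p53 element with at most 1 mismatch to its 20-base consensus in Cdkn1a (chr17:29090729-29090978, plus strand) and Ccng1 (chr11:40755287-40755536, minus strand), and the CRE TGACGTCA in Btg2 (chr1:134079156-134079405, minus strand).
Cdkn1a: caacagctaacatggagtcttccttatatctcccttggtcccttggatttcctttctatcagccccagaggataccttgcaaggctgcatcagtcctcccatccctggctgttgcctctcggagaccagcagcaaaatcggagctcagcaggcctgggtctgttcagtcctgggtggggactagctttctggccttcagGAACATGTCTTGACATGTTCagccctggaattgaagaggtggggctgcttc
Ccng1: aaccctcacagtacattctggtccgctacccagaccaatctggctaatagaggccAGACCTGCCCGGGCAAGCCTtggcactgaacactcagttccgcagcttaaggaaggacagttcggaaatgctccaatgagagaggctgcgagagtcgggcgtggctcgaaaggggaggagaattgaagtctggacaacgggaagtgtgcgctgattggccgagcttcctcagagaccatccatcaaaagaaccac
Btg2: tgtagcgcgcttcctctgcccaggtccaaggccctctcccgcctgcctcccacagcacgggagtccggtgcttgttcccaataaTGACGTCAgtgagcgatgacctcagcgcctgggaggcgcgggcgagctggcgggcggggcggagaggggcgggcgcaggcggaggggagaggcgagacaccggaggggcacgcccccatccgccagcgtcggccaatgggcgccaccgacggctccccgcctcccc
The element started at position -51 from the Cdkn1a start of the window shown and at -195 in Ccng1, and the CRE at -166 in Btg2. Cdkn1a has another start downstream, whose window (chr17:29093519-29093768, plus strand) is not shown. That window held neither the element nor the half-site. Both strands of every window of this length were searched. The p53 element with at most 1 mismatch was in 25 of 32851 windows (0.0761%), the CRE in 508 (1.55%) and the p53 half-site decamer, which lies inside the element, in 2341 (7.13%). Among the 10 windows of these genes, 2 held the element, 1 the CRE and 4 the half-site. The element without a mismatch was in 3 of all windows and in 0 of the 10; the allowance of 1 mismatch was chosen after the Cdkn1a sequence had been seen. The motif TGATGNAA, which ATF4 with its partners can bind, was in 1134 windows (3.45%) and in 0 of the 10. A match describes these letters and does not show binding in these livers.

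Cdkn1a had its highest mean level on the lowest protein share. Levels below are log2 values as deposited, so that 1 unit is a doubling. At 5% protein Cdkn1a ran from 8.32 to 10.14 with a median of 9.82 (mean 9.62 ± 0.57, SD, n = 10). At 14% it ran from 5.22 to 10.45 with a median of 9.09 (8.59 ± 1.45, n = 9), and at 23% from 5.25 to 9.52 with a median of 7.64 (7.74 ± 1.39, n = 9). The 5% mice formed a narrow band, while mice on 14% and 23% spread over several units. At 33% the range was 6.44 to 9.79 with a median of 8.18 (8.35 ± 1.13, n = 9). The 5 mice on 42% had 5.03 at High energy, 5.97, 9.92 and 9.96 at Medium energy and 8.92 at Low energy (7.96 ± 2.31). At 60% it ran from 5.66 to 9.12 with a median of 6.54 (7.01 ± 1.25, n = 6). The fall was not even from share to share: the means at 23%, 33% and 42% lay within 1 SD of one another, and single mice on every share but 60% exceeded 9.5.

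Of the 38 mice on more than 5% protein, 19 lay below the lowest mouse on 5%, namely 2 of 9 on 14%, 5 of 9 on 23%, 5 of 9 on 33%, 2 of 5 on 42% and 5 of 6 on 60%. Only 3 of the 38 lay above the median at 5%. Because the 5% diets were all High energy, the High energy mice were also set apart. Their means were 9.62 ± 0.57 at 5% (n = 10), 8.29 ± 1.54 at 14% (n = 6), 7.78 ± 1.21 at 23% (n = 5), 7.72 ± 0.94 at 33% (n = 4), 5.03 at 42% (1 mouse) and 6.65 ± 1.11 at 60% (n = 3). The High energy means thus declined at each share up to the single mouse on 42% and lay higher again at 60%.

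**Figure D1:**
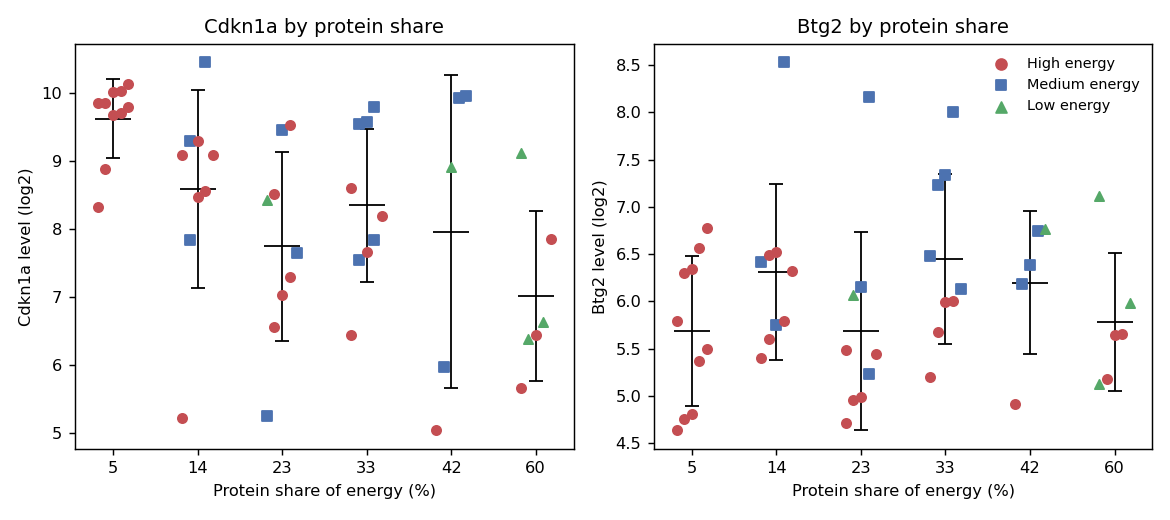
Log2 level of Cdkn1a (left) and Btg2 (right) in each of 48 livers by the protein share of energy, with energy level as colour and shape; bars show the mean and SD of all mice on a share. Cdkn1a sits between 8.32 and 10.14 at 5% protein and reaches down to 5.03 above it, while Btg2 at 5% spans 4.63 to 6.77 and is overlapped by mice of every other share.

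In a limma model with protein, the exchange of carbohydrate for fat and energy level, the Cdkn1a coefficient was -0.51 ± 0.12 (SE) log2 units for each 10 points of energy that protein gained, with carbohydrate and fat giving up the same amount each. Extended over the 55 points between the extreme shares this is a level 6.98-fold lower at 60% than at 5%. The slope was the 7th lowest of 16926 genes. Among High energy mice alone it was -0.61. It was -0.45 ± 0.12 among the 34 mice whose number in the labels is under 300 and -1.06 ± 0.29 among the 14 numbered over 300. These values chose the gene and are given as a description.

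The spread of an array's values moved with protein too. The interquartile range of all values on an array averaged 3.16 ± 0.20 log2 units at 60% protein (n = 6) and 3.48 ± 0.13 at 5% (SD, n = 10). Cdkn1a correlated with it over the 48 mice at r = 0.51, and with this range as a term in the model the Cdkn1a slope was -0.37. Its part in the result was not tested beyond that term. Macrophage markers, as the log2 of the summed level of 8 of 8 measured genes, ran from 9.195 to 9.9985 at 60% and from 9.004 to 10.61 at 5%; hepatocyte markers (8 of 8) ran from 15.29 to 15.40 at 60% and from 15.13 to 15.32 at 5%. Of 8 stellate cell markers 2 fell with protein in limma, where 3.65% of all genes fell. They were the collagens Col1a1 (-0.32 ± 0.09 per 10 points, adjusted p = 0.0278 in limma) and Col1a2 (-0.17 ± 0.06, adjusted p = 0.0479). Neither passed with the interquartile range as a term. The stellate sum ran from 9.89 to 10.48 at 60% and from 10.19 to 11.19 at 5%. Slopes were positive for 0 of 8 stellate, 0 of 8 macrophage and 1 of 8 endothelial markers, with medians of -0.16, -0.11 and -0.08. They were positive for 1 of 7 lymphocyte, 0 of 5 neutrophil and 2 of 4 cholangiocyte markers, with medians of -0.07, -0.06 and -0.02. Of all these only the collagens passed, and the part of these cell types in the Cdkn1a slope was not tested. Of 8 hepatocyte markers 4 had a positive slope, with a median of -0.0047 per 10 points beside -0.0019 for all genes. Only the urea cycle enzyme Cps1 passed, where 3.37% of all genes rose. It rose at 0.15 ± 0.02 per 10 points (adjusted p = 1.57e-05 in limma, and 0.000773 with the interquartile range as a term).

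Trp53inp1, whose product is a nuclear partner of p53 in stress responses and also acts in autophagy, had the second steepest slope of the set. Its level ran from 7.45 to 9.07 at 5% protein with a median of 8.47 (8.38 ± 0.45, SD, n = 10). Means were 7.74 at 14%, 7.71 at 23%, 7.79 at 33% and 7.65 at 42%. At 60% the level ran from 6.54 to 7.86 with a median of 7.41 (7.31 ± 0.49, n = 6). Over all energy levels, the step between 5% and 14% thus exceeded the differences among the 4 middle shares. Among High energy mice alone the means were 8.38 at 5% (n = 10), 7.77 at 14% (n = 6) and 7.62 at 23% (n = 5). They were 7.42 at 33% (n = 4), 7.01 at 42% (1 mouse) and 7.12 at 60% (n = 3). There the decline went on through the middle shares. Of 38 mice above 5% protein, 13 lay below the lowest mouse at 5%. The slope was -0.18 ± 0.05 per 10 points, or 1.98-fold lower over 55 points, with -0.25 among High energy mice alone and -0.11 with the interquartile range as a term. Trp53inp1 correlated with that range at r = 0.56.

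The other 6 genes had shallower slopes. Mdm2, the ubiquitin ligase that removes p53, had -0.06 ± 0.03 per 10 points, and Phlda3, an inhibitor of the kinase AKT, -0.07 ± 0.03. Ccng1, the p53 target cyclin G1, had -0.03 ± 0.02, and Sesn1, a sestrin that restrains mTORC1, -0.04 ± 0.04 (0.0027 among High energy mice alone). Cdkn2a, the locus of p16Ink4a and p19Arf, had 0.05 ± 0.03, the single positive slope; the probe set does not separate those products here. Btg2 had -0.08 ± 0.06. Mdm2 averaged 5.59 ± 0.23 at 60% protein (SD, n = 6) and 6.03 ± 0.24 at 5% (n = 10). Ccng1 averaged 7.65 ± 0.29 at 60% and 7.89 ± 0.22 at 5%. Over all 48 mice the SD of Mdm2, Ccng1, Phlda3, Sesn1 and Cdkn2a was 0.27 to 0.38, against 1.5 for Cdkn1a, 0.90 for Btg2 and 0.61 for Trp53inp1. Cdkn2a and Phlda3 had low mean levels, 2.32 and 2.87, where array medians were 1.57 to 1.86. The rest of the 8 averaged from 5.53 (Sesn1) to 8.34 (Cdkn1a). The slopes and SDs of Cdkn2a and Phlda3 thus come from low signals. The median slope of the 8 genes was -0.06, beside -0.0019 for all genes. Cdkn1a and Trp53inp1 were among the genes with an adjusted p under 0.05 for protein, 2 of 8, where 7.01% of all genes were; this contrast chose the set, so nothing is read from that count. With the array interquartile range as a term it was 0 of 8.

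**Figure D2:**
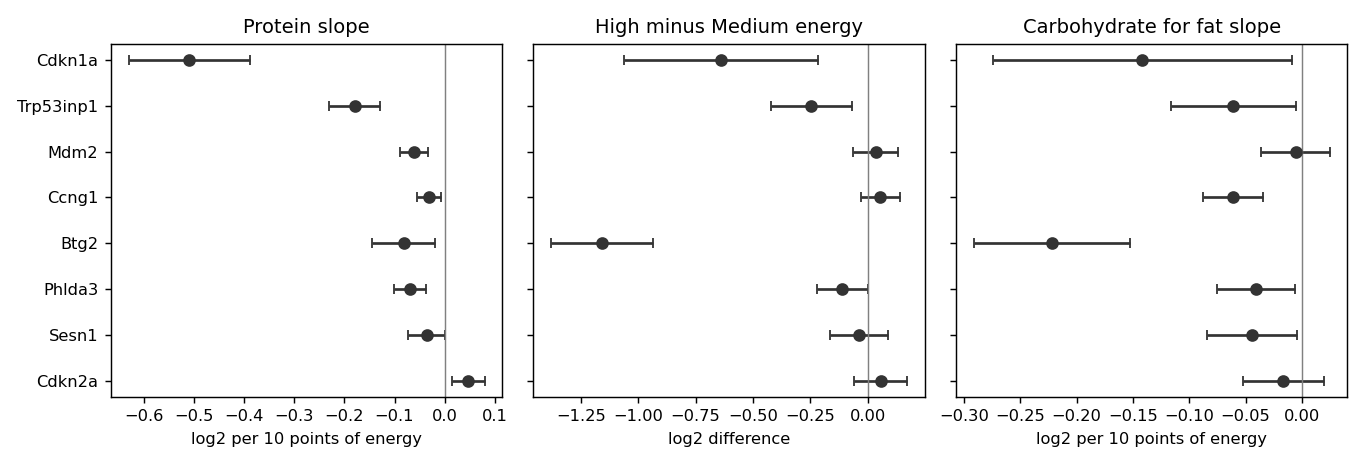
Coefficients of the 8 genes in the limma model over 48 mice, as points with bars of 1 SE: the slope per 10 points of protein (left), the difference of High minus Medium energy (middle) and the slope per 10 points of carbohydrate for fat (right), all in log2 units on different scales. Cdkn1a lies farthest from 0 for protein (-0.51) and Btg2 for energy (-1.16); all 8 exchange slopes are below 0.

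Btg2 was lower on High than on Medium energy diets. It ran from 4.63 to 6.77 with a median of 5.60 in High energy mice (5.61 ± 0.62, SD, n = 29) and from 5.23 to 8.53 with a median of 6.45 in Medium energy mice (6.77 ± 0.96, n = 14). The ranges overlapped, and 8.53 belonged to the single Medium energy mouse on 14/29/57. The 5 Low energy mice had 5.12 to 7.12 with a median of 6.07 (6.21 ± 0.77), between both. The model's difference of High minus Medium was -1.16 ± 0.22, which makes the Medium level 2.23-fold that of High. It was the 5th lowest of 16926 genes, and the value describes the gene's choice.

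Within a composition, where macronutrients were the same, the order held for Btg2 in each of 6. On 14/57/29 the High energy mice had 5.60 and 5.40, against 6.42 and 5.75 at Medium energy. On 14/29/57 High energy mice had 5.79, 6.49, 6.32 and 6.52, against 8.53 in the single Medium energy mouse. The High energy mice lay below the Medium energy mice in both. On 23/38/38 they had 4.95, 5.44 and 5.49, against 5.23, 8.16 and 6.15 at Medium energy. This was the one composition in which the groups overlapped. On 33/47/20 High energy mice had 5.99 and 5.67, against 7.34 and 6.48 at Medium energy. On 33/20/47 they had 6.01 and 5.19, against 6.13, 7.23 and 8.0 at Medium energy. On 42/29/29 the single High energy mouse had 4.92, against 6.18, 6.74 and 6.38 at Medium energy. Differences of the means ran from -0.59 to -2.25. A mean lower at High energy in 6 of 6 compositions occurred in 3.26% of all genes and a mean higher in 6 of 6 in 2.97%, and High energy mice wholly below Medium energy mice in 5 or more occurred in 0.0709% (12 genes); with the gene chosen on this contrast, no test follows from these shares.

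**Figure D3:**
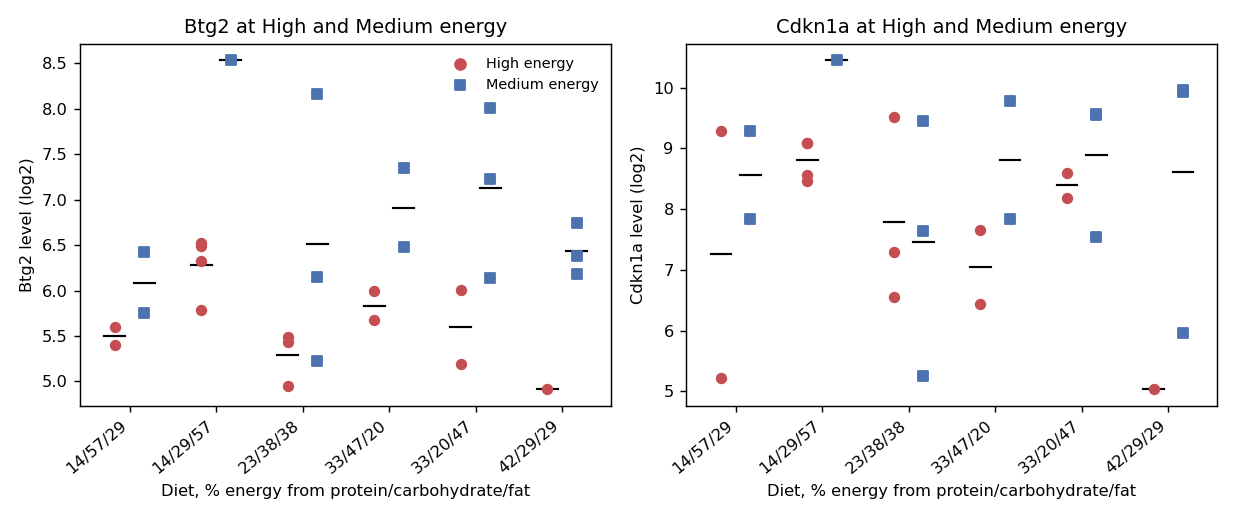
Log2 level of Btg2 (left) and Cdkn1a (right) in each mouse on the 6 compositions fed at both High (circles) and Medium (squares) energy; black lines are group means. Btg2 is lower at High energy in 6 of 6 compositions, and Cdkn1a in 5 of 6, with 23/38/38 the exception.

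The Btg2 difference was -1.04 without the Medium energy 14/29/57 mouse. It was -1.36 as the mean over the 6 compositions and -1.19 over the 5 without 14/29/57. It was -0.95 ± 0.28 among mice numbered under 300 and -1.5 ± 0.33 among those numbered over 300. With the interquartile range as a term it was -1.15. These values reuse the contrast that chose the gene and are given as a description. The Medium energy 14/29/57 mouse stood apart in other respects. The log2 of its summed macrophage markers was 13.89, against 9.14 to 11.13 in the other 13 Medium energy mice, and of its neutrophil markers 9.21, against 3.71 to 4.67. Its summed hepatocyte markers were 14.65, against 15.24 to 15.46.

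Over all mice, macrophage markers (8 of 8 measured) summed to 8.90 to 11.59 with a median of 9.97 at High energy, and to 9.14 to 13.89 with a median of 10.12 at Medium energy. Neutrophil markers (5 of 6 above the filter, Ly6g below it) summed to 3.61 to 4.21 with a median of 3.84 at High energy, and to 3.71 to 9.21 with a median of 3.89 at Medium energy. Immediate early genes, the rapid-response group to which Btg2 is often counted, summed to 10.02 to 11.50 with a median of 10.72 at High energy, and to 10.33 to 12.46 with a median of 10.96 at Medium energy. The 12.46 belonged to the Medium energy 14/29/57 mouse. The other 13 Medium energy mice ran from 10.33 to 11.50 with a median of 10.88. The part of these markers and genes in the Btg2 difference was not tested.

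Cdkn1a depended on how the energy levels were compared. It had -0.64 ± 0.42 for High minus Medium in the model, -1.41 as the mean over the 6 compositions, -1.36 over the 5 without 14/29/57 and -0.28 with arrays weighted by their quality. Over the matched compositions, and among mice numbered over 300, its difference was thus larger than that of Btg2. It was -0.08 ± 0.48 among mice numbered under 300 and -2.26 ± 0.71 among those over 300. Its composition means differed by -1.30 on 14/57/29, -1.65 on 14/29/57, 0.34 on 23/38/38, -1.77 on 33/47/20, -0.49 on 33/20/47 and -3.58 on 42/29/29, the last against a single High energy mouse. Cdkn1a was thus lower at High energy in 5 of 6 compositions, with groups apart in 3. In the model Trp53inp1 had -0.25 ± 0.18, Phlda3 -0.11 ± 0.11, Sesn1 -0.04 ± 0.13 (0.16 over the 5 compositions), Mdm2 0.03 ± 0.10, Ccng1 0.05 ± 0.08 and Cdkn2a 0.06 ± 0.11. In this contrast 0 of 8 genes, and 0.0% of all genes, had an adjusted p under 0.05 in limma, with 1376 genes under 0.05 before adjustment.

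**Figure D4:**
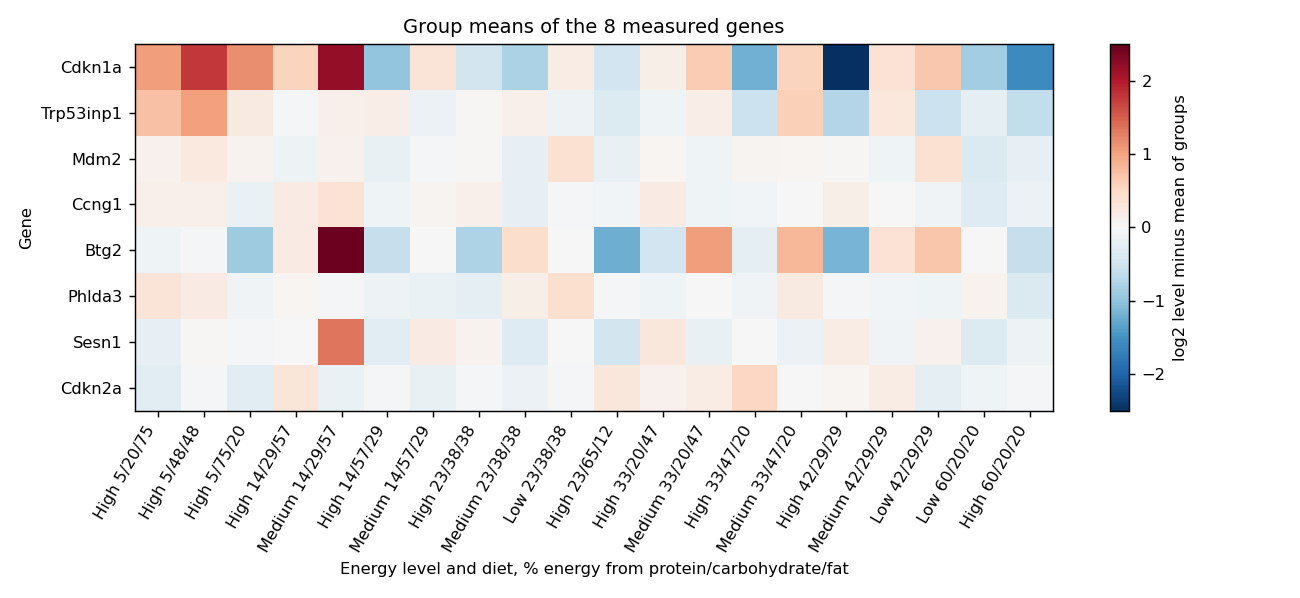
Mean log2 level of each of the 8 genes in the 20 combinations of energy level and diet, as the difference from the mean over combinations (red higher, blue lower); columns run from 5% to 60% protein. Cdkn1a is above its mean in the 3 combinations with 5% protein, lowest at High 42/29/29 (1 mouse) and high at Medium 14/29/57 (1 mouse), where Btg2 and Sesn1 are also at their highest.

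Exchange of carbohydrate for fat was not used to choose the genes, so it was tested. No gene passed the test: it was 0 of 8, and 0.0% of all genes, in limma, with 665 genes under 0.05 before adjustment. All 8 slopes were negative, with a median of -0.05 per 10 points beside 0.0018 for all genes. Btg2 had -0.22 ± 0.07 per 10 points of fat replaced by carbohydrate (unadjusted p = 0.00243, adjusted p = 0.999 in limma). Its slope was -0.17 ± 0.08 among mice numbered under 300 and -0.33 ± 0.11 among those over 300. At 5% protein Btg2 had 5.36 and 6.56 on 5/20/75, a mean of 6.04 ± 0.89 on 5/48/48 and of 5.18 ± 0.55 on 5/75/20 (SD, n = 4 each); these groups overlapped. Ccng1 had -0.06 ± 0.03 (unadjusted p = 0.025). Cdkn1a had -0.14 ± 0.13, and at 5% protein 8.88 and 9.70 on 5/20/75, 10.01 ± 0.12 on 5/48/48 and 9.41 ± 0.73 on 5/75/20 (n = 4 each). Adjusted p was 0.999 for each of the 8 genes.

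Low and High energy could be set against each other at 60/20/20, with 3 mice each. Cdkn1a had 9.12, 6.37 and 6.63 at Low energy, against 6.44, 7.85 and 5.66 at High energy. Btg2 had 7.12, 5.12 and 5.98 at Low energy, against 5.65, 5.64 and 5.18 at High energy. Both pairs of groups overlapped. The difference of Low minus High was 0.73 ± 1.0 for Cdkn1a (adjusted p = 0.82 in limma) and 0.58 ± 0.54 for Btg2 (adjusted p = 0.722 in limma). Without the first Low energy mouse they were -0.15 and 0.06. Of the 8 genes 0 passed, as did 0.0% of all genes, with 1710 genes under 0.05 before adjustment; with SEs this wide, differences of about 1 unit in Cdkn1a were not detectable. The protein slope was also tested for a dependence on whether carbohydrate or fat was exchanged. Interaction coefficients ran from -0.12 for Cdkn1a to 0.04 for Phlda3, 0 of 8 genes passed beside 0.0% of all genes, and 652 genes were under 0.05 before adjustment in limma.

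Mice on the same diet differed widely, and Cdkn1a, Trp53inp1 and Btg2 varied together among them. After the mean of each of the 20 combinations was taken out, the SD was 1.33 for Cdkn1a, 0.71 for Btg2 and 0.53 for Trp53inp1. The 13 pairs were Cdkn1a and Btg2 each with the other genes. By Pearson's r 5 had an adjusted permutation p under 0.05, and 3 when mice were shuffled only within their combination. How often pairs among all genes reach such values was not computed. The 4 combinations with 1 mouse add a 0 to both genes of a pair. Cdkn1a and Trp53inp1 had Pearson's r = 0.75 and Spearman's rho = 0.68 (n = 48, permutation p = 1e-05 for both, the smallest 100000 permutations can give; adjusted p = 0.00013). The free shuffle behind these p-values treats residuals of all diets as interchangeable. With mice shuffled only within combinations, the pair had permutation p = 0.00013 for r and 0.00021 for rho (adjusted p = 0.00169 and 0.00273). Leaving out the 2 mice farthest from the median of Cdkn1a gave r = 0.67. It was 0.76 among mice numbered under 300 and 0.69 among those over 300 (adjusted permutation p = 0.0708, n = 14).

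Cdkn1a and Btg2, chosen for different diet patterns, had r = 0.55 and rho = 0.49 within combinations (permutation p = 7e-05 and 0.00048; adjusted p = 0.000455 and 0.00312), and r = 0.51 without the 2 farthest mice. With mice shuffled only within combinations, the adjusted permutation p was 0.00377 by r and 0.0274 by rho. The relation was r = 0.65 among mice numbered under 300 and 0.27 among those over 300 (adjusted permutation p = 0.509, n = 14). Btg2 and Trp53inp1 had r = 0.45 and rho = 0.44 (permutation p = 0.00141 and 0.00182; adjusted p = 0.00611 and 0.00591), 0.44 without the 2 farthest mice, 0.43 under 300 and 0.53 over 300. Cdkn1a and Sesn1 ran opposite, with r = -0.43 and rho = -0.45 (permutation p = 0.00191 and 0.00142; adjusted p = 0.00621 and 0.00591), -0.41 without the 2 farthest mice, -0.46 under 300 and -0.40 over 300. For that pair the adjusted p was 0.0759 when mice were shuffled only within their combination. Under the same shuffle Btg2 and Trp53inp1 had an adjusted permutation p of 0.0435 by r and 0.0668 by rho.

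Cdkn1a and Cdkn2a had r = 0.34 and rho = 0.19 (permutation p = 0.0182 and 0.193; adjusted p = 0.0474 and 0.278), and an adjusted p of 0.301 when shuffled within combinations. For that pair r was 0.18 without the 2 farthest mice, 0.49 under 300 and -0.28 over 300. With the interquartile range also taken out, it had r = 0.42 and rho = 0.37 (adjusted permutation p = 0.00887 and 0.0305). There r was 0.40 without the 2 farthest mice. With Mdm2, Ccng1 and Phlda3, Cdkn1a had r = 0.13, 0.21 and -0.03, none of which passed (adjusted p = 0.477, 0.23 and 0.833). Btg2 and Sesn1 had r = -0.30 (adjusted p = 0.0745). Of the p53 targets in the set, Mdm2, Ccng1 and Phlda3 thus showed no detected relation with Cdkn1a among mice of 1 diet. Trp53inp1 (r = 0.75) varied with Cdkn1a, and Sesn1 (r = -0.43) ran opposite by the free shuffle. Within combinations Mdm2 and Ccng1 varied little, with SDs of 0.29 and 0.27. For Phlda3 the mean level was low, at 2.87. With the interquartile range also taken out, Cdkn1a had r = 0.74 with Trp53inp1 and 0.56 with Btg2.

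**Figure D5:**
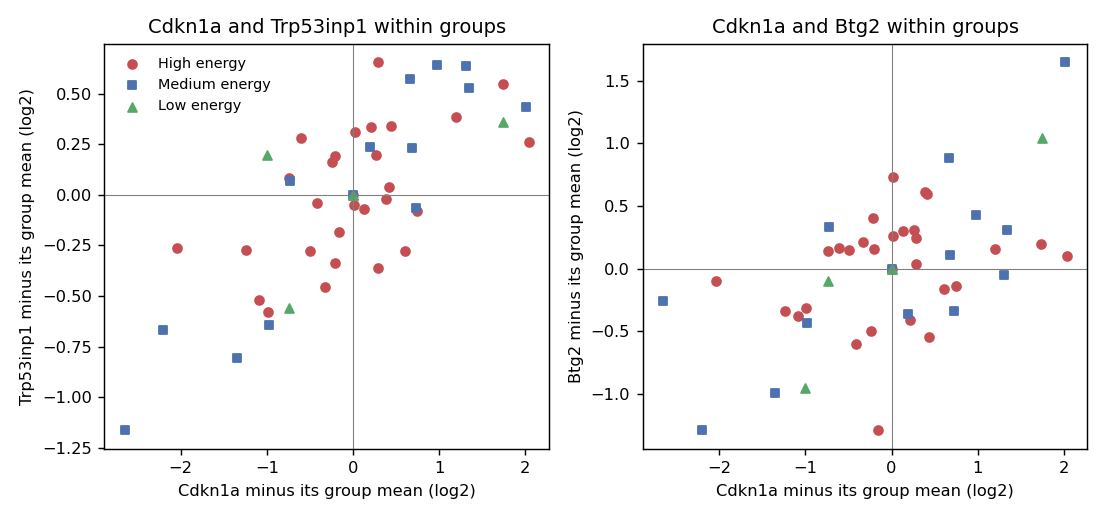
Cdkn1a minus the mean of its combination of energy level and diet (x axis, log2) against the same for Trp53inp1 (left) and Btg2 (right) in 48 mice; points at 0 on both axes are mice alone in their combination. Both clouds slope upward, with r = 0.75 for Trp53inp1 and 0.55 for Btg2.

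Over the levels of all 48 mice, which share diets and arrays, the genes most like Cdkn1a were Igfbp1, a hepatic binding protein for insulin-like growth factors (r = 0.82), Skil, a repressor of SMAD signalling (0.79), and Crip2, a LIM-domain protein (0.77). Trp53inp1 (0.75), App (0.74), the amyloid precursor, and Enc1 (0.72) followed. Within combinations their r was 0.83 for Igfbp1, 0.77 for Skil, 0.67 for Crip2, 0.62 for App and 0.60 for Enc1. These 6 genes also correlated with the array interquartile range, at r = 0.42 to 0.77. The genes most unlike Cdkn1a were the succinate receptor Sucnr1 (-0.74), Mpv17l (-0.74) and Hes6 (-0.71).

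The genes most like Btg2 were lipoprotein lipase Lpl (r = 0.74), the fatty acid binding protein Fabp4 (0.73), Clca3a1 (0.71), the protease Tmprss2 (0.70), the proliferation marker Mki67 (0.68) and D17H6S56E-5 (0.68). Within combinations Lpl had 0.71, Fabp4 0.67 and Mki67 0.59. Plekhb1 (-0.73), the mitochondrial carrier Slc25a16 (-0.71) and the sulfotransferase Sult2a8 (-0.70) were most unlike it. No gene was in both lists. Fabp4 is also a gene of macrophages and fat cells, and its highest level was 10.28 where its mean was 5.71.

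Other genes of the pathway were read from lists that leave out the 8. Of 37 further p53 targets tested for protein in limma, 1 rose and 5 fell, with a median slope of -0.05; over all genes 3.37% rose and 3.65% fell. Dcxr, a carbonyl reductase, rose at 0.15 ± 0.03 per 10 points (adjusted p = 0.00401). Ephx1, the microsomal epoxide hydrolase, fell at -0.17 ± 0.04 (adjusted p = 0.0126), and Cgref1 at -0.24 ± 0.06 (adjusted p = 0.0188). The other 3, named after their values were seen, were the sestrin Sesn2 (-0.28 ± 0.08), the death-promoting Bcl2l11 (-0.19 ± 0.06) and the kinase Plk2 (-0.13 ± 0.04). Of 18 p53 regulators 0 passed, with 8 under 0.05 before adjustment, where 4510 of all 16926 genes were, and a median of -0.05. With the array interquartile range as a term, 0 of the 37 targets passed.

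Of 19 cyclins, cyclin-dependent kinases and their partners, 1 rose and 2 fell with protein, beside the 7.01% of all genes called in either direction. The pocket protein Rbl2, a brake on E2F targets, rose at 0.09 ± 0.02 per 10 points (adjusted p = 0.00856), and the D-type cyclins Ccnd1 and Ccnd2, which drive entry into DNA synthesis, fell at -0.35 ± 0.09 (adjusted p = 0.0159) and -0.24 ± 0.07 (adjusted p = 0.0375). Of 5 other cyclin-dependent kinase inhibitors 0 passed, with 0 under 0.05 before adjustment. Of 14 genes of the BTG/TOB family and CCR4-NOT, the poly(A)-binding Pabpc1 fell at -0.12 ± 0.04 (adjusted p = 0.0431). Of 13 secretory genes of senescence 0 passed, with 0 under 0.05 before adjustment. With the interquartile range as a term Rbl2 alone of these still passed (adjusted p = 0.0167 in limma).

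In the lists for stress responses more genes fell with protein than rose; among all genes 3.65% fell and 3.37% rose. Of 19 ATF4 targets, genes of the amino acid shortage response, 8 fell with protein and 0 rose, with a median of -0.17. Fgf21, a hormone the liver releases on low protein, fell at -0.57 ± 0.12 per 10 points (adjusted p = 0.00252), the amino acid transporter subunit Slc7a5 at -0.21 ± 0.05 and the stress regulator Nupr1 at -0.29 ± 0.07 (adjusted p = 0.00552 for both). Sesn2 is in this list as well as among the p53 targets. Of 30 immediate early genes 8 fell and 0 rose, with a median of -0.10; the AP-1 subunit Fosl2 fell at -0.23 ± 0.05 (adjusted p = 0.00761), Klf10 at -0.18 ± 0.04 (adjusted p = 0.0101) and Maff at -0.21 ± 0.05 (adjusted p = 0.0135). Of 15 clock genes the repressor Bhlhe40 fell at -0.11 ± 0.03 (adjusted p = 0.0266). With the interquartile range as a term 0 of these 3 lists' genes passed, with medians of -0.09 for ATF4 targets, -0.04 for immediate early genes and 0.03 for clock genes.

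For High minus Medium energy 0 genes of any list passed in limma. Before adjustment 1376 of all 16926 genes were under 0.05 in limma. Among immediate early genes 11 of 30 were under 0.05 before adjustment, and 5 of 30 coefficients were positive. Their median difference was -0.32 beside 0.0065 for all genes. Cyclins and their kinases had a median of -0.17, with 5 of 19 under 0.05 before adjustment, and the BTG/TOB and CCR4-NOT list -0.02, with 0 of 14. The further p53 targets had a median of 0.0022 with 2 of 37 under 0.05 before adjustment. Macrophage markers had a median of -0.44 and neutrophil markers -0.51, with 0 of 8 and 0 of 5 coefficients positive. How many of all genes had a positive coefficient was not counted. For every list the contrast includes the Medium energy 14/29/57 mouse, whose immediate early gene sum was also the highest at Medium energy.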

How the data were processed

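Values are log2 expression as deposited by the authors, 1 per probe set (41345) and array (48), between -0.51 and 13.42; the scale was read from that range. Per the labels' protocols, total RNA was biotin-labelled and hybridized; background correction, normalization and build are not given in the sources used here. Array medians were 1.57 to 1.86. An array gives no molecule count, so the number of arrays limits precision.

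A gene is its single-symbol probe set of highest mean (platform annotation; 23521 of 25335 listed probe sets had 1 symbol, 1814 several, 16010 were unlisted; 23328 matched RefSeq). Genes above the 30th percentile of probe set means (1.17) were tested. limma 3.58.1 in R 4.3.3 (lmFit, eBayes with trend, two-sided, Benjamini-Hochberg over 16926 genes, threshold 0.05) fitted protein, carbohydrate for fat and energy level to 48 mice, or a mean for each of 20 combinations for Low minus High. Correlations used 100000 permutations. The fits were tested on simulated data.

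Members, lists and tests were chosen with earlier results of these data known. Named genes are all members, up to 3 of each list with the smallest p among those passing, and the 6 most like and 3 most unlike Cdkn1a and Btg2; Sesn2, Bcl2l11 and Plk2 were added after their values were seen. Alternatives changed the filter, probe set rule, normalization, array weights, added terms, blocks or mice used; permutation within combinations was chosen after seeing the data. The series' design took 1 mouse from each cage, so p-values measure the spread between separate animals.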

Additional observations from a re-analysis of the deposited data

Results flagged for a closer look

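In groups of 4 to 10 mice, 80 sets of levels were checked for a single mouse far from the others, and 7 were picked out; chance picks out about 1 in 20 groups. For Cdkn1a, 1 High energy mouse on 5/75/20 had 8.32 where the next was 9.67, and 1 High energy mouse on 14/57/29 had 5.22 where the next among mice on 14% protein was 7.83. For Btg2, the Medium energy 14/29/57 mouse had 8.53, with 6.52 next among mice on 14%, and 1 Medium energy mouse on 23/38/38 had 8.16, with 6.15 next among mice on 23%. Sesn1 was 6.93 in the same Medium energy 14/29/57 mouse, with 5.90 next. Phlda3 was 3.56 in 1 High energy mouse on 14/29/57, with 2.88 next. Cdkn2a was 2.42 in 1 High energy mouse on 60/20/20, with 2.24 next among mice on 60%.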

How the results depend on the processing

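No paired analysis was possible because replicate numbers were given in accession order and pair no mice across diets. The 1187 genes for protein were 4301 with array weights, 113 with the interquartile range as a term, 133 with that and the Y-linked minus Xist value, 630 with the combination as a random block and 3652 on log2 of the share; without single mice they were 590 (without the High energy 42/29/29 mouse) to 3007 (without the second High energy 60/20/20 mouse), and 9 mice moved them over 1.5 times. The Cdkn1a slope ranged from -0.58 to -0.46 and the Btg2 energy difference from -1.29 to -1.04 without single mice. The Y-linked minus Xist value, an array's mean of Y-linked genes minus its Xist level, stands in for sex, which the main model leaves out. It correlated with Cdkn1a at r = -0.28 and with Trp53inp1 at r = -0.30. With it as a term the Cdkn1a slope was -0.49 and the Btg2 energy difference -1.14. Carbohydrate for fat gave 2 genes with weights and 1 at High energy alone. High minus Medium gave 2 with the Y-linked minus Xist term, 4 with both terms, 1899 over 6 compositions and 2 over the 5 without 14/29/57, and 0 to 3 without single mice. Low minus High gave 12 with weights and 0 to 5 without single mice, and the interaction 1 with weights.

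Some signs turned. The Sesn1 protein slope was 0.0014 with weights and 0.0027 at High energy alone. Its High minus Medium difference was 0.018 with weights, 0.16 over the 5 compositions and 0.075 without the Medium energy 14/29/57 mouse; that of Mdm2 was -0.012 without 1 Medium energy 23/38/38 mouse. The Sesn1 exchange slope was 0.0007 with weights, Low minus High was 0.026 for Mdm2 after quantile normalization and 0.059 for Sesn1 with weights. The interaction of Trp53inp1 was -0.0045 and -0.0048 with the interquartile range, alone or with the other term, and -0.018 at High energy alone; that of Mdm2 was -0.0067 after quantile normalization, -0.012 with weights, -0.0025 and -0.0022 with those terms and -0.011 at High energy alone, where Ccng1 had -0.0033. Without single mice, exchange slopes ran from -0.016 to 0.012 for Mdm2 and -0.032 to 0.0016 for Cdkn2a; Low minus High from -0.15 to 1.32 for Cdkn1a, -0.31 to 0.029 for Ccng1, -0.47 to 0.046 for Sesn1 and -0.12 to 0.023 for Cdkn2a; and the interaction from -0.022 to 0.030 for Trp53inp1 and -0.0055 to 0.018 for Mdm2. Among mice numbered over 300 (n = 14), r was 0.69 for Cdkn1a with Trp53inp1, 0.27 with Btg2, -0.40 with Sesn1 and -0.28 with Cdkn2a, and 0.53 for Btg2 with Trp53inp1, -0.091 with Ccng1 and -0.045 with Cdkn2a, none of which passed. Cdkn1a with Phlda3 was 0.048 with the interquartile range taken out and 0.042 under 300. Shuffled within combinations, Cdkn1a with Sesn1 (-0.43) and with Cdkn2a (0.34) no longer passed by r, nor did Btg2 with Trp53inp1 (0.44) by rho. The causes were not tested.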
